A study of Saccharomyces cerevisiae S288C with 72 samples.

Results

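The yeast mitochondrial ribosome was described through the mRNAs of 66 genes, out of 5803 in the deposited table. The members were every entry whose name is MRPL, MRPS, MRP or RSM followed by a number. The RefSeq annotation calls 37 of them proteins of the large subunit and 27 proteins of the small subunit. It places the remaining 2, MRP8 and RSM22, in neither: RSM22 is annotated as a tRNA methyltransferase and MRP8 carries no description. All 66 passed the filter on low values, which kept 5721 genes.

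RNA was sequenced from S288C strains of the budding yeast Saccharomyces cerevisiae in defined medium with ammonium and 2% glucose in baffled flasks. Wild type was sampled beside an nde1Δ nde2Δ ndi1Δ strain and a cox4Δ strain, at 24 matched times from 0 to 58 h, with 1 library per strain and time and 72 libraries in all. The first mutant lacks the external NADH dehydrogenases and the internal one, which pass electrons from NADH into the respiratory chain. The second lacks a nuclear-encoded subunit of cytochrome c oxidase, the last enzyme of that chain. All strains started on glucose, each mutant was 1 strain, and no replicate culture is stated. Time points were grouped as early (0 to 8 h, n = 7), middle (9 to 16 h, n = 8) and late (18 to 58 h, n = 9), and these points stood in for replicates, so that p-values measure the spread between times of single cultures.

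The deleted genes followed the labels. COX4 lay between 0.396 and 5.21 TPM in the cox4Δ libraries and between 321 and 1554 TPM in wild type, and NDE1, NDE2 and NDI1 did not exceed 3.22, 0.602 and 2.08 TPM in their mutant. All samples were bulk RNA, in which fewer cells and less RNA per cell cannot be told apart. Levels below are in TPM, a relative measure of transcript abundance corrected for transcript length, rescaled to a common total over nuclear genes. A gene was called different at a Benjamini-Hochberg adjusted p below 0.05 in limma together with a change of at least 2-fold. The column names open with a letter and a number. Each strain had letters of its own, and the letter changed between 13 and 14 h in every strain. No label says what the letters stand for, and an effect tied to them cannot be told apart from strain or time.

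Mitochondrial ribosomes translate the few proteins that mitochondrial DNA encodes, most of them core subunits of cytochrome c oxidase, the cytochrome bc1 complex and ATP synthase. In yeast nearly all proteins of these ribosomes are made from nuclear genes and imported, and respiratory growth depends on them. The mRNAs of many such proteins are bound by Puf3, an RNA-binding protein that recognises a short UGUA-containing element after the stop codon and that is known to repress or stabilise its targets depending on the carbon source.

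Because of this known regulator, the 200 bases after each stop codon were searched on the sense strand for TGTANATA, a choice made after the expression values had been seen. The element occurred at least once after all 64 ribosomal protein genes, 37 of 37 for the large and 27 of 27 for the small subunit, and after neither MRP8 nor RSM22. Among all 5704 tested genes with a coding sequence in the annotation, 833 held it, or 14.6%. The sites below are those of the members on which the results turn, read from RefSeq's copy of genome build R64 (sacCer3), written 5′ to 3′ on the coding strand with 8 bases on each side and with the element in capitals.
MRPL9 (chrVII:936026-936049, minus strand): tacaatcaTGTACATAcatcaata
MRPL11 (chrIV:99270-99293, plus strand): ttcaatcaTGTACATAcatcatca
MRPL27 (chrII:768701-768724, plus strand): aatatgcgTGTAAATActagtttt
MRPL39 (chrXIII:251210-251233, minus strand): atttatccTGTAAATAagtaatgg
MRP20 (chrIV:1278502-1278525, plus strand): ctcacactTGTATATAcggagcaa
MRPL24, first of 2 (chrXIII:650859-650882, plus strand): ttttccccTGTATATAaaaaagca
MRPS17 (chrXIII:636220-636243, minus strand): ctacactcTGTAAATAtatacaac
MRPS12 (chrXIV:694272-694295, minus strand): caacctttTGTAAATAgcaatgac
RSM27 (chrVII:922550-922573, plus strand): tcatttcaTGTACATAcaaaatca
RSM19, first of 3 (chrXIV:695027-695050, minus strand): ggatctagTGTATATAgatttcta

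The 64 genes held 78 such sites. Of these, 36 read TGTAAATA, 24 TGTATATA, 17 TGTACATA and 1 TGTAGATA, and 51 of the 78 had a C at the second base before the element. A single site followed 51 genes, 12 genes had 2 sites, and RSM19, the uS19m protein of the small subunit, had 3. The first site began between 8 and 139 bases after the stop codon, with a median of 51, and lay within 100 bases for 60 genes. Transcript ends were not used, so a site here is a match in the genome and not a measured binding site.

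Other mitochondrial genes differed in how often they held the element. It followed 12 of 12 mitochondrial ribosomal proteins with names outside the rule, 14 of 14 mitochondrial aminoacyl-tRNA synthetases, 7 of 8 translation factors and 12 of 16 translational activators. It followed 0 of 9 nuclear-encoded subunits of the bc1 complex, 1 of 10 of cytochrome c oxidase, 4 of 16 of ATP synthase and 5 of 132 cytosolic ribosomal proteins. The 300 bases before the start codon held CCAAT, the core of the Hap complex's element, on either strand in 24 of 66 members (36.4%) against 42.3% of all genes. AAAATTTT, a stretch found before many ribosome biogenesis genes, was present before 2 of 66 members (3.03%) against 9.73% of all genes.

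**Figure D1:**
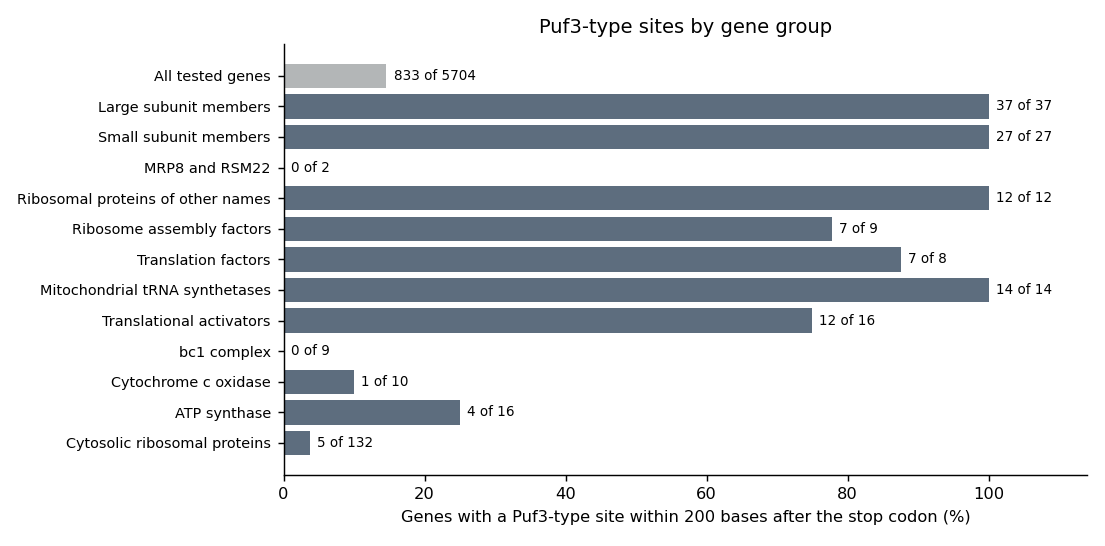
Share of genes with TGTANATA within 200 bases after the stop codon, in percent, for the members by subunit, other gene groups and all tested genes, with the number of genes beside each bar. Both subunits reach 100%, against 14.6% of all genes.

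The members spanned a wide range of levels. Means over the 72 libraries are given here in TPM as deposited, before rescaling. MRPS12, the uS12m protein at the decoding centre, had the highest, 412 TPM. It was followed by MRP8 at 355, MRPL39 (bL33m) at 192, MRPL51 (mL43) at 136 and MRPL33 (uL30m) at 133 TPM. The lowest were RSM22 at 6.84, MRP13 (mS44) at 13.7 and RSM23 (mS29) at 14.9 TPM. Within each strain the median member varied about as much, with a maximum over minimum of 2.91 in wild type, 3.22 in the nde1Δ nde2Δ ndi1Δ strain and 3.06 in the cox4Δ strain. Some members have close neighbours. The open reading frame YNL184C overlaps MRPL19 by 113 bases on the same strand, YPR099C overlaps MRPL51 by 323 bases on the opposite strand, and YHL005C overlaps MRP4 by 2 bases on the opposite strand. On the opposite strand YJR112W-A lies 63 bases from RSM7, BXI1 89 bases from MRPS18 and VPS3 99 bases from RSM28. The levels of these 6 members are uncertain, since reads could be shared and no source used here gives the strand setting of the quantification.

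In wild type the mitochondrial ribosomal mRNAs were lowest in the middle window and highest in the late window. The 64 ribosomal proteins together made up 0.386% ± 0.0305 (SD, n = 7) of all TPM in the early window, 0.33% ± 0.0456 (n = 8) in the middle window and 0.487% ± 0.0778 (n = 9) in the late window. The lowest library was that of 14 h, at 0.281%, and the highest that of 46 h, at 0.592%. The early and middle windows overlapped, and so did the middle and late windows, since the 32 h library held 0.337%. The cytosolic ribosomal proteins, which belong to the ribosomes outside mitochondria, followed another course: they made up 26.5% ± 7.61 of all TPM early, 9.06% ± 3.25 in the middle window and 8.03% ± 2.27 late. Their sum was 67.7 times that of the mitochondrial proteins early and 16.8 times late.

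**Figure D2:**
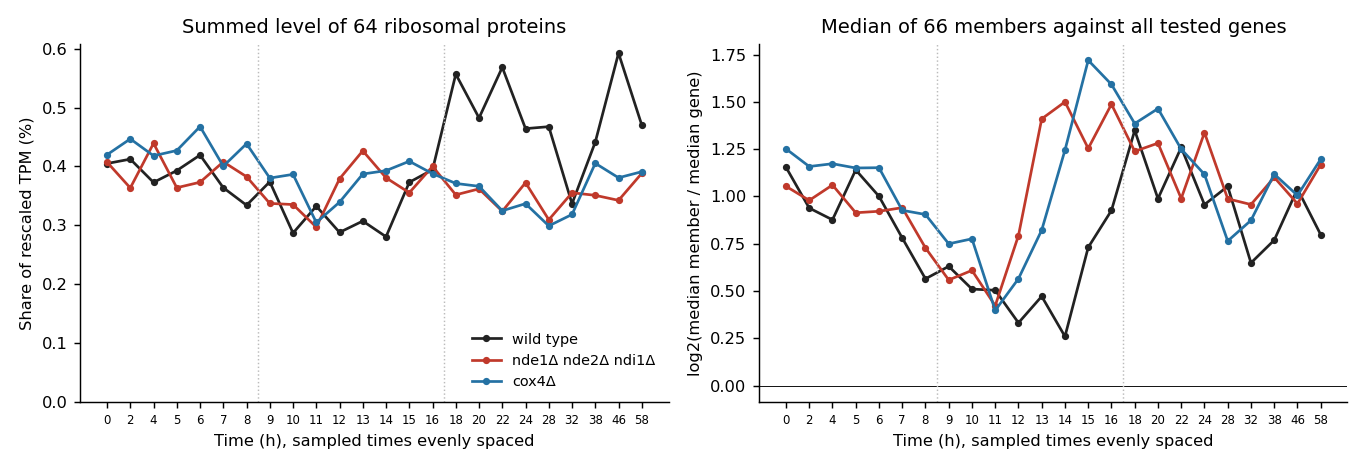
Left, summed level of the 64 ribosomal members in percent of rescaled TPM; right, log2 of the median member over the median tested gene; each point is 1 library, lines join the strains and dotted lines part the 3 windows. The late wild-type libraries reach 0.592% while the late mutant libraries stay between 0.299% and 0.405%; on the right the late mutant and wild-type libraries overlap.

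Between the early and the middle window of wild type, 1 of 66 members was called higher and 0 lower, where 12.3% of all genes were called higher and 11% lower. That member was MRP8, with a log2 difference of 1.04 (SE 0.18, adjusted p = 3.4e-06, limma), which lay between 0.95 and 0.99 and under 2-fold when the 0, 2 or 4 h library was left out. The median member moved by -0.31 on the log2 scale, against -0.06 for the median gene. By the adjusted p alone 28 members were lower and 5 higher, against 26.5% and 26.8% of all genes.

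Between the middle and the late window of wild type, 6 members were called higher and 0 lower, against 4.21% and 1.8% of all genes. The 6 were MRPS17 (uS17m), MRPL24 (bL28m), MRPL50, MRP21, MRPL39 and MRPL31, of which MRPS17 differed by 1.37 and MRPL24 by 1.35 on the log2 scale. With the median of ratios, a second scaling that sets the median gene to near 0, MRPS17 and MRPL24 alone were called. The count was also 2 with a pseudocount of 5, and 2 or 3 when the 10, 12, 14, 22 or 46 h library was left out. Without the fold limit 51 of 66 were higher and 0 lower, against 19.3% and 6.9% of all genes, and the median member moved by 0.56 against 0.08. MRPS17 ran from 14.6 through a median of 26.7 to 32.4 TPM in the middle window and from 37 through 60.4 to 94.9 TPM in the late window. Its late libraries all lay above its middle ones, which also held for MRPL24, MRPL31 and MRP7, 4 members in all, where 2.88% of all genes showed it.

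Between the early and the late window, 4 members were called higher and 0 lower, against 18.4% and 14.7% of all genes. By the adjusted p alone 27 were higher and 0 lower (1 at an unadjusted p below 0.05), against 35.8% and 29.1% of all genes. MRP20, the uL23m protein at the exit of the nascent chain, differed by 1.42 (SE 0.15, adjusted p = 2.3e-12). Its wild-type level ran from 15.1 through a median of 28.6 to 46.6 TPM early and from 60.1 through 72.9 to 95.2 TPM late, with no overlap. The other 3 were MRPL24 with 1.23, MRPL28 (mL40) with 1.13 and RSM28 (mS46) with 1.03, and RSM28 was under 2-fold with the median of ratios (0.98) and between 0.92 and 0.98 when the 7, 18, 22 or 46 h library was left out. RSM19 stayed between 107 and 142 TPM in all 24 wild-type libraries, with a late against early difference of -0.03 (SE 0.17). The maximum over time lay in the late window for 54 of 66 members in wild type, and the minimum in the middle window for 47.

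The course was also read across the loss of HXT3, a low-affinity glucose transporter whose mRNA depends on glucose. HXT3 went from 1644 TPM at 14 h to 58.1 TPM at 18 h, and over that interval, chosen after seeing the data and with 1 library on each side, 30 of 66 members were at least 2-fold higher and 0 lower. HXT3 had already reached 78.8 TPM at 16 h, when the summed share of the members was 0.395%, and that share was 0.557% at 18 h. By this share more of the rise from 0.281% at 14 h came after 16 h than before it. By the log2 of the median member over the median gene the order was reversed. That measure was 0.26 at 14 h, 0.93 at 16 h and 1.35 at 18 h, so the timing against the fall of HXT3 depends on the measure. Of all genes, 7.43% were at least 2-fold higher and 7.66% lower. MRPL24 went from 11.1 to 55.6 TPM, MRPS17 from 16 to 78 TPM, MRPL50 from 23.3 to 102 TPM and MRPL39 from 91.3 to 325 TPM. Only MRPL4, MRP4 and MRP20 were lower at 18 h, by less than 2-fold. Started from 13 h in place of 14 h the count was 26, and from 15 h it was 8; ended at 20 h it was 21, and at 16 h it was 6.

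In the mutants HXT3 was lost earlier, and fewer members were at least 2-fold higher after it. In the nde1Δ nde2Δ ndi1Δ strain 7 members were at least 2-fold higher and 5 lower between 11 and 15 h, with a median log2 change of 0.06. All genes there had a median of -0.75, with 5.75% at least 2-fold higher and 39.1% lower. In the cox4Δ strain 8 members were higher and 7 lower between 12 and 16 h, with a median of 0.01 against -0.78 for all genes, of which 6.47% were higher and 41.9% lower. Members at least 2-fold higher in each mutant were MRPL24, MRPL31, MRPL33, MRPL50, MRP21 and RSM28, and members at least 2-fold lower in each were MRPL3 (mL44), MRPL11 (uL10m, of the ribosomal stalk), MRP4 (uS2m) and RSM19. Started or ended at a neighbouring time, the nde1Δ nde2Δ ndi1Δ step gave between 1 and 12 members higher and between 4 and 8 lower, and the cox4Δ step between 4 and 10 and between 6 and 9. The difference between strains in this step was not tested, as each step rests on 2 libraries. Both mutant steps span the change of column letter, and the wild-type step from 14 to 18 h does not. An effect tied to the letters thus cannot be told apart from strain here. The wild-type medians were 0.94 for members and -0.10 for all genes, so members lay above all genes by median in each strain. The steps were not recomputed with the median of ratios.

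**Figure D3:**
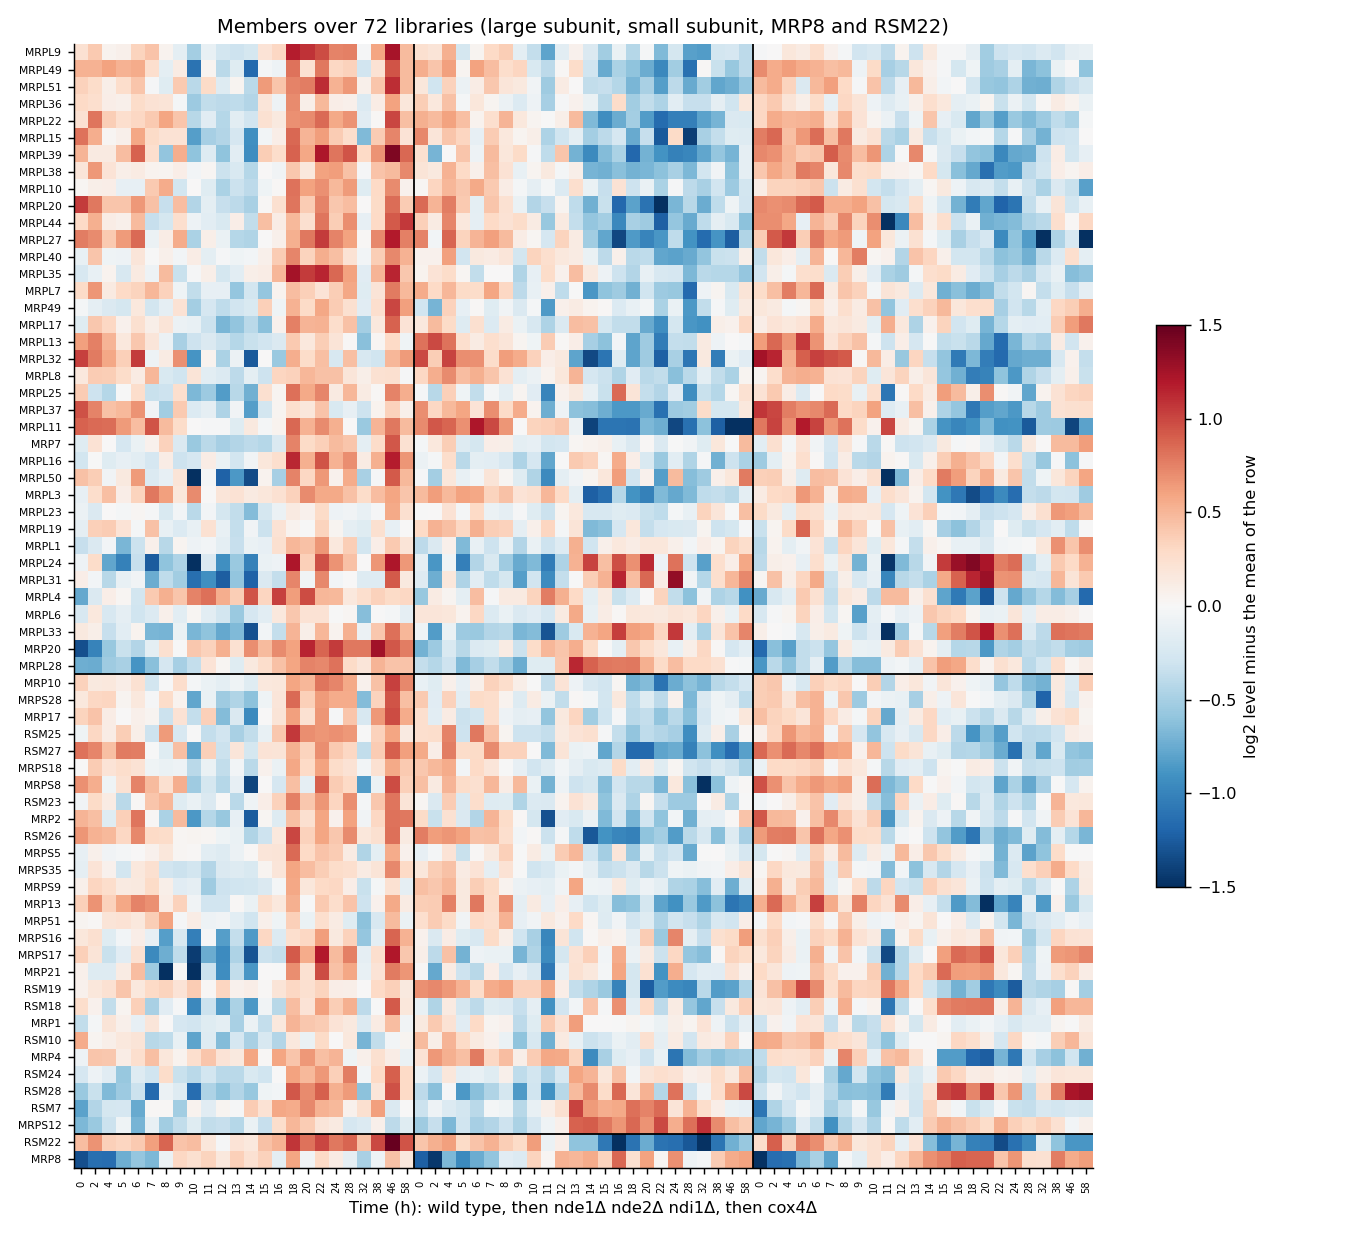
Log2 level of each member minus its own mean over the 72 libraries, in time order for wild type, the nde1Δ nde2Δ ndi1Δ strain and the cox4Δ strain, with the large subunit above, the small subunit in the middle and MRP8 and RSM22 at the foot. Most rows are high in late wild type and low in the late mutants. MRPS12, RSM7, MRPL28, MRP8 and MRPL31 are among the exceptions.

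Taken separately, the maximum over time lay in the early window for 38 members in each mutant, and the minimum in the late window for 35 in the nde1Δ nde2Δ ndi1Δ strain and 40 in the cox4Δ strain. The summed share was 0.391% ± 0.0282 early and 0.351% ± 0.0238 late in the nde1Δ nde2Δ ndi1Δ strain. For the cox4Δ strain it was 0.431% ± 0.022 early and 0.355% ± 0.0364 late. From the early to the middle window 1 member, MRP8, was called higher in each mutant. MRPL11 and RSM26 (mS42) were called lower in the nde1Δ nde2Δ ndi1Δ strain and MRPL32 (bL32m) in the cox4Δ strain. RSM26 was under 2-fold without the 0, 14, 15 or 16 h libraries, each left out in turn, and MRPL11 passed in the cox4Δ strain too, without the library of 4, 7, 9, 10, 11, 12 or 13 h. With the median of ratios 3 members were called higher and 0 lower in the nde1Δ nde2Δ ndi1Δ strain, and 1 and 0 in the cox4Δ strain. The background was 10.4% higher and 27.8% lower in the former strain and 10.9% and 18.2% in the latter. Judged by the adjusted p alone 5 members were higher and 31 lower in the former, against 19.9% and 51% of all genes, and 4 and 29 in the latter, against 22.6% and 38.6%.

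From early to late, 2 members were called higher and 12 lower in the nde1Δ nde2Δ ndi1Δ strain, against 12.2% and 40% of all genes. Of the members in the cox4Δ strain, 1 was called higher and 14 lower, against 13.7% and 34.3%. By the adjusted p alone the nde1Δ nde2Δ ndi1Δ strain had 10 higher and 37 lower, against 20.5% and 60%, and the cox4Δ strain 6 and 39, against 23.4% and 54.4%. The median member moved by -0.45 and -0.43, and the median gene by -0.71 and -0.54, in the order of these strains. With the median of ratios the balance turned: 10 members were called higher and 1 lower in the nde1Δ nde2Δ ndi1Δ strain, and 6 higher and 2 lower in the cox4Δ strain. MRPL11 was called lower under both scalings in each mutant, MRPL32 under both in the cox4Δ strain, and MRP8 higher under both in each mutant.

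MRPL11 fell furthest in both mutants. In the nde1Δ nde2Δ ndi1Δ strain it ran from 28 through a median of 32.5 to 41.5 TPM early and from 4.73 through 7.42 to 11 TPM late, a log2 difference of -1.99 (SE 0.21, adjusted p = 9.6e-13). Its cox4Δ levels ran from 28 through 31.2 to 40.9 TPM early and from 6.06 through 8.86 to 11.7 TPM late, a difference of -1.76 (SE 0.21, adjusted p = 5.5e-11). Early and late libraries did not overlap in either strain, which held for 21 members in each mutant where 45.7% and 37.5% of all genes were lower without overlap. RSM27 (mS33) with -1.37 and -1.34, MRPL27 (mL41) with -1.36 and -1.51, and RSM19 with -1.33 and -1.15 were also called lower in the nde1Δ nde2Δ ndi1Δ and cox4Δ strains, but not with the median of ratios. Between the middle and the late window 0 members were called in either direction in either mutant, where all genes gave 1.5% higher and 3.3% lower in the nde1Δ nde2Δ ndi1Δ strain and 3.01% and 6.76% in the cox4Δ strain. At an adjusted p below 0.05 without a fold limit, limma gave 1 higher and 15 lower in the former, against 6.8% and 22.2% of all genes, and 5 and 20 in the latter, against 9.63% and 30.1%. At an unadjusted p below 0.05 the counts were 4 and 20, and 7 and 25.

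In the early window 0 of 66 members were called in any comparison of strains by limma, and 0 passed the adjusted p alone. Against wild type, 0.192% of all genes were called higher and 0.0524% lower in the nde1Δ nde2Δ ndi1Δ strain, and 0.577% and 0.105% passed the adjusted p alone. For the cox4Δ strain these shares were 0.472% and 0.297%, and 1.01% and 2.13%. Between the mutants, cox4Δ against nde1Δ nde2Δ ndi1Δ, they were 0.0524% and 0.14%, and 0.0874% and 0.734%. At an unadjusted p below 0.05 the members numbered 1 higher in the nde1Δ nde2Δ ndi1Δ strain and 6 higher in the cox4Δ strain than in wild type, and 7 higher in the cox4Δ than in the nde1Δ nde2Δ ndi1Δ strain, with 0 lower in each.

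In the middle window 0 members were called either, against 0.787% higher and 3.67% lower in the nde1Δ nde2Δ ndi1Δ strain and 0.507% and 2.32% in the cox4Δ strain. HXT3 was down to 232 TPM at 12 h in the former and 501 TPM at 13 h in the latter, but still at 1644 TPM at 14 h in wild type. Some matched times of this window thus pair mutant libraries after its fall with wild-type libraries before it. With the fold limit dropped 10 members passed as higher and 4 as lower in the nde1Δ nde2Δ ndi1Δ strain, and 8 and 3 in the cox4Δ strain. The same criterion took 5.51% and 47% of all genes in the former and 2.31% and 27.7% in the latter. At an unadjusted p below 0.05 the members numbered 14 and 5, and 16 and 4. Between the mutants 0 members were called or passed the adjusted p alone, against 0.105% and 0.175% of all genes called and 0.385% and 0.787% passing, and 5 higher and 4 lower had an unadjusted p below 0.05. MRPL31 (mL60) differed most upward in the nde1Δ nde2Δ ndi1Δ strain, by 0.72 (SE 0.18, adjusted p = 0.0012), and MRPL4 (uL29m) most downward in the cox4Δ strain, by -0.76 (SE 0.16, adjusted p = 0.00051).

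In the late window both mutants lay below wild type in most members. Against wild type, 16 of 66 were called lower and 0 higher in the nde1Δ nde2Δ ndi1Δ strain, where 29.4% of all genes were called lower and 2.71% higher. Likewise 14 were called lower and 0 higher in the cox4Δ strain, where the background was 26.3% and 2.46%. By the adjusted p alone 51 members were lower and 1 higher in each mutant, against 68.6% and 9.3% of all genes in the nde1Δ nde2Δ ndi1Δ strain and 67.2% and 8.97% in the cox4Δ strain. At an unadjusted p below 0.05, 2 members were higher in each. The median member differed by -0.71 and -0.58, and the median of all genes by -0.65 and -0.61. Scaled by the median of ratios, 1 member was called lower and 1 higher in each mutant: RSM22 lower (-1.39 and -1.29), MRPS12 higher in the nde1Δ nde2Δ ndi1Δ strain (1.41) and MRP8 higher in the cox4Δ strain (1.14). Both comparisons use the same wild-type libraries, so the mutants' values are given side by side and are not independent.

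RSM22, whose product acts on RNA and is linked to the small subunit in yeast, had the largest deficit. Its level ran from 8.42 through a median of 12.4 to 19.4 TPM in late wild type, from 1.49 through 2.22 to 3.7 TPM in the nde1Δ nde2Δ ndi1Δ strain and from 1.75 through 2.58 to 5.13 TPM in the cox4Δ strain. No mutant library reached the lowest wild-type one, and the log2 differences were -1.97 (SE 0.16, adjusted p = 8.7e-15) and -1.83 (SE 0.16, adjusted p = 7.7e-14).

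Among the ribosomal proteins, MRPL39, MRPL27 and MRPL11 of the large subunit had the largest deficits in the nde1Δ nde2Δ ndi1Δ strain, -1.62, -1.57 and -1.55, followed by RSM27 of the small subunit with -1.35. MRPL27 ran from 28.7 through 48.1 to 65.7 TPM in late wild type and from 11.4 through 14.9 to 21.4 TPM in that mutant, with no overlap. Its cox4Δ levels ran from 6.32 through 18.2 to 23.7 TPM, again with no overlap, and differed by -1.54. MRP20 ran from 21.2 through 28.4 to 30.2 TPM in the cox4Δ strain, below every late wild-type library, and differed by -1.40 (SE 0.11, adjusted p = 1.3e-15). MRPL9 (uL3m) ran from 38.4 through 66.6 to 93.1 TPM in late wild type and from 21.3 through 29.3 to 38 TPM in the nde1Δ nde2Δ ndi1Δ strain, a difference of -1.22. With the median of ratios MRPL39, MRPL27, MRPL11, RSM27 and MRPL9 kept a negative sign in both mutants and were under 2-fold, as was MRP20 in the cox4Δ strain (-0.76). In all, late wild type lay above the nde1Δ nde2Δ ndi1Δ strain without overlap for 18 members, where 32.5% of all genes did so, and above the cox4Δ strain for 10, against 27.1%.

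**Figure D4:**
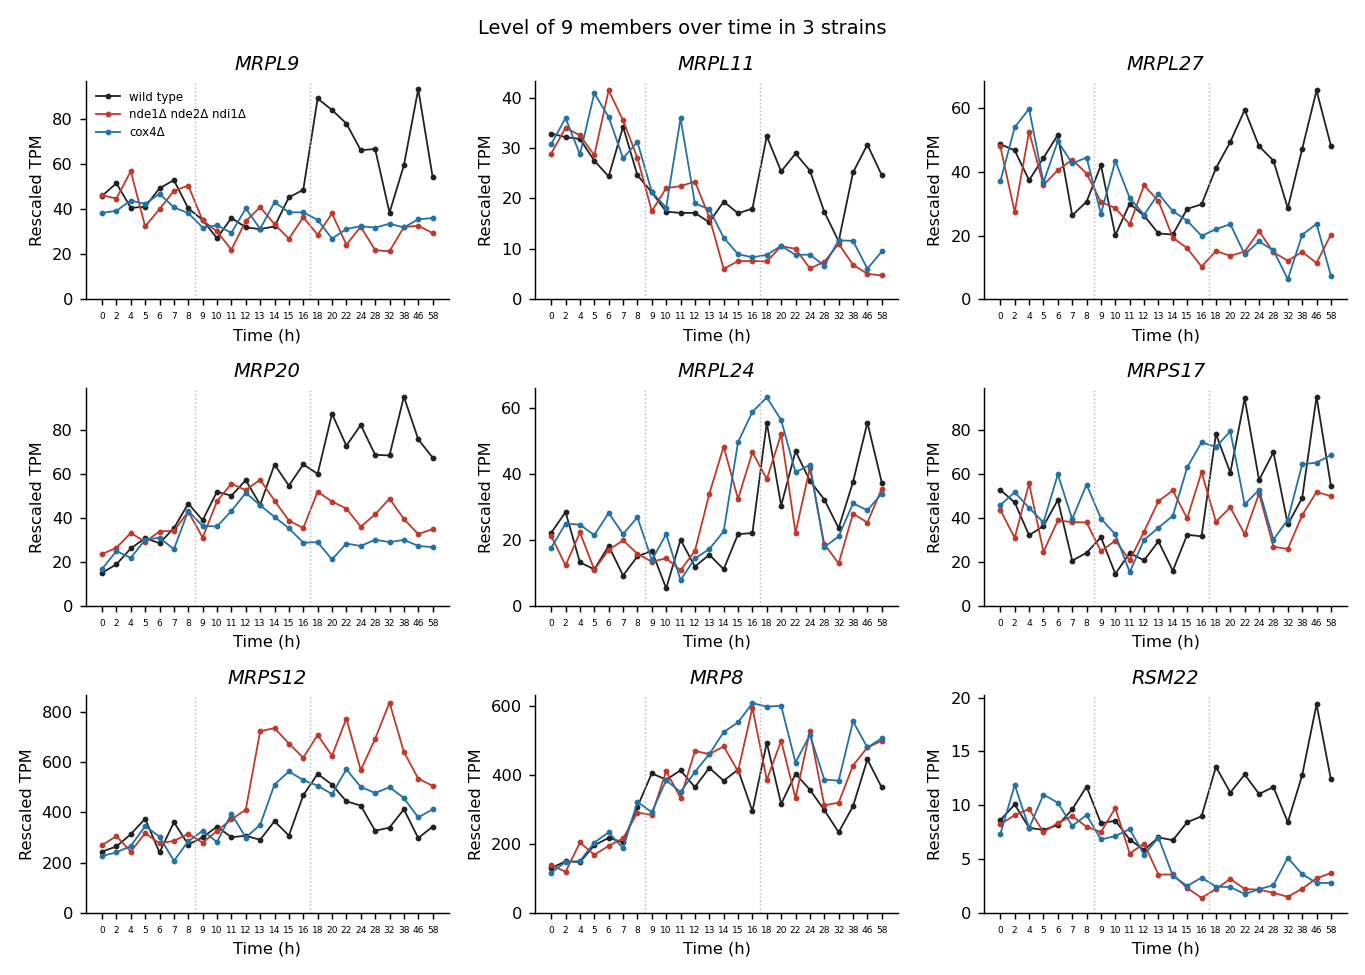
Rescaled TPM of 9 members at each of the 24 times, evenly spaced on the x axis, for the 3 strains; each point is 1 library and dotted lines part the windows. MRPL9, MRPL27 and MRP20 separate late wild type from both mutants, MRPS12 is highest in the nde1Δ nde2Δ ndi1Δ strain from 13 h on, and RSM22 stays at or below 5.13 TPM in the late mutants.

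MRPS12 was higher in late mutant than in late wild-type cells by its median. It ran from 298 through a median of 412 to 553 TPM in late wild type, from 506 through 641 to 837 TPM in the nde1Δ nde2Δ ndi1Δ strain and from 380 through 477 to 571 TPM in the cox4Δ strain. The nde1Δ nde2Δ ndi1Δ strain differed from wild type by 0.70 (SE 0.12, adjusted p = 1.2e-06, limma), which was under 2-fold, and the 2 strains overlapped between 506 and 553 TPM. The cox4Δ strain differed from wild type by 0.25 (SE 0.12, adjusted p = 0.058, limma), which did not pass the adjusted p. It overlapped wild type between 380 and 553 TPM. Within the nde1Δ nde2Δ ndi1Δ strain MRPS12 was called higher late than early, by 1.17 (SE 0.16, adjusted p = 3.2e-09, limma). In that strain it stepped from 410 TPM at 12 h to 723 TPM at 13 h, between columns of the same letter. MRP8 was called higher late than early in both mutants, by 1.17 in the nde1Δ nde2Δ ndi1Δ strain and 1.40 in the cox4Δ strain, and its wild-type difference of 0.91 was under 2-fold.

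Between the mutants 0 members were called in the late window, against 0.21% of all genes higher and 0.0874% lower in the cox4Δ strain than in the nde1Δ nde2Δ ndi1Δ strain. On the adjusted p alone 3 were lower in the cox4Δ strain and 0 higher, against 1.15% and 0.542% of all genes. The 3 were RSM7 (uS7m) with -0.62 (SE 0.12, adjusted p = 0.0018), MRP20 with -0.57 (SE 0.11, adjusted p = 0.00097) and MRPS12 with -0.45 (SE 0.12, adjusted p = 0.032). At an unadjusted p below 0.05, 5 members were lower and 9 higher. RSM7 ran from 87.9 through 115 to 173 TPM in the nde1Δ nde2Δ ndi1Δ strain and from 74.7 through 79.6 to 93.8 TPM in the cox4Δ strain, and the strains overlapped.

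The change from early to late itself was tested against that of wild type. In the nde1Δ nde2Δ ndi1Δ strain 19 members changed more downward than in wild type and 0 more upward, where 33.5% and 2.8% of all genes did so, with a median of -0.68 against -0.72. In the cox4Δ strain 18 did so and 0 went upward, where the background was 26.1% and 3.51%, with a median of -0.77 against -0.56. By the adjusted p alone 47 were lower and 1 higher in the nde1Δ nde2Δ ndi1Δ strain, against 61.7% and 6.15% of all genes, and 46 and 1 in the cox4Δ strain, against 51.6% and 8.62%. RSM22 led with -1.89 and -1.86, followed by MRPL11 with -1.69 in the nde1Δ nde2Δ ndi1Δ strain and by MRPL27 with -1.74 in the cox4Δ strain. Under median-of-ratios scaling 1 and 3 members stayed called lower, RSM22 in the former and RSM22, MRPL27 and MRPL39 in the latter, while 3 and 2 were called higher.

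**Figure D5:**
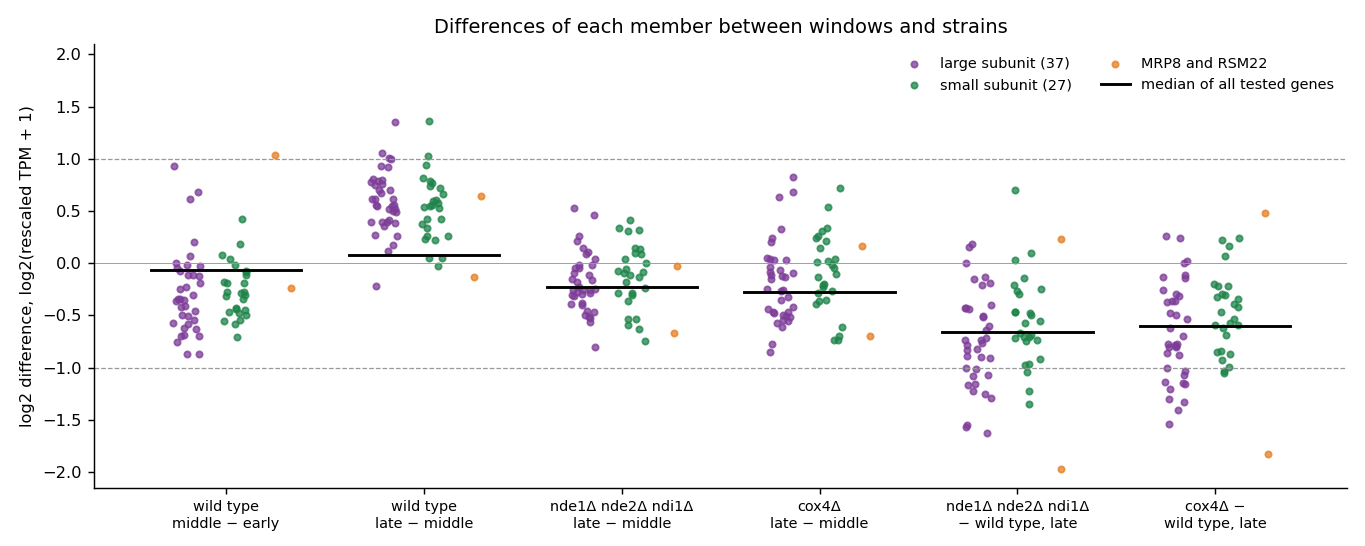
Log2 difference of each of the 66 members in 6 comparisons, with large subunit, small subunit and the 2 unplaced members side by side; black bars mark the median of all tested genes and dashed lines 2-fold. In the late mutants against wild type the members straddle the black bars at -0.65 and -0.61, with the large subunit reaching lower than the small.

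Both subunits had negative medians in the late mutants against wild type. In late nde1Δ nde2Δ ndi1Δ cells against wild type, 12 of 37 large and 3 of 27 small subunit members were called lower, where 29.4% of all genes were, with medians of -0.76 and -0.57. In late cox4Δ cells the counts were 11 of 37 and 2 of 27, where 26.3% of all genes were called lower, with medians of -0.77 and -0.47. The large subunit's counts thus lay near the share of all genes, and with the median of ratios 0 members of either subunit stayed called lower in either mutant. In wild type between 14 and 18 h, 19 of 37 large and 11 of 27 small subunit members were at least 2-fold higher, with medians of 1.08 and 0.83. The log2 ratio of the median large to the median small subunit member was -0.27 ± 0.11 early (SD, n = 7), -0.17 ± 0.18 in the middle window (n = 8) and 0.00 ± 0.11 late (n = 9) in wild type. It was -0.26, -0.23 and -0.22 ± 0.16 in the nde1Δ nde2Δ ndi1Δ strain and -0.24, -0.23 and -0.34 ± 0.15 in the cox4Δ strain. Late cox4Δ and late wild-type libraries overlapped in this ratio, with ranges of -0.57 to -0.06 and -0.14 to 0.20. Taken from sums in place of medians, the ratio had the opposite sign in wild type early and in the middle window, at 0.23, 0.13 and 0.28 over the windows, and in the cox4Δ strain, at 0.30, 0.12 and 0.021. By sums it went from 0.20 ± 0.070 early to -0.18 ± 0.16 late in the nde1Δ nde2Δ ndi1Δ strain, where the medians differed by less than their SD. The sums weigh members by level, and MRPS12, the highest, differed by 1.17 from early to late in that strain. At 15 h there it alone held 674 of the small subunit's 1869 TPM. The sums were not recomputed without MRPS12, so a shift of the subunits as wholes cannot be read from them. No test was made of the difference between subunits, which were compared as counts and medians.

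Members also differed in how closely they followed the others. The correlation of each member with the mean of the other 65 on the log2 scale, over the 72 libraries, had a median of 0.63 and exceeded 0.5 for 46 members. These libraries share strains, times and column letters, so the values are descriptions. MRPL9 was closest at 0.87, followed by MRPL49 (bL21m) and MRPL51 at 0.84. Below 0 were MRPS12 at -0.43, MRP8 at -0.32, RSM7 at -0.14 and MRPL28 at -0.05, and MRP20 stood at 0.12. MRPS12, RSM7, MRPL28 and MRP20 hold the Puf3-type element like the other ribosomal members. In wild type alone MRPL31 (0.92), MRPL33 (0.89) and RSM28 (0.86) followed the others closely, while in the nde1Δ nde2Δ ndi1Δ strain their values were -0.21, -0.29 and -0.14 (n = 24 libraries each). The spread between members, as the SD of their log2 levels within a library, was 0.95 on average in late wild type, 1.13 in the late nde1Δ nde2Δ ndi1Δ strain and 1.13 in the late cox4Δ strain.

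Among genes outside the rule, PAM16, a subunit of the mitochondrial import motor, was most like the mean member, with a correlation of 0.89 over the 72 libraries. YBR242W (0.83), MIC19 (0.83) of the cristae-organising complex, MLP1 (0.83) of the nuclear pore and SEN15 (0.82) of the tRNA splicing endonuclease came next.

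Other genes of mitochondrial translation were taken from lists written out by role. Of 12 tested ribosomal proteins with other names, 2 were called lower late in each mutant than in wild type and 0 higher, with medians of -0.52 in the nde1Δ nde2Δ ndi1Δ strain and -0.53 in the cox4Δ strain. RML2 differed by -1.10 and -1.27 and EHD3 by -1.16 and -1.33 in that order. These lists were not recomputed with the median of ratios, and the median of all genes lay at -0.65 and -0.61 in these comparisons. Of 14 mitochondrial aminoacyl-tRNA synthetases, which charge the tRNAs, 5 were called lower in the nde1Δ nde2Δ ndi1Δ strain and 3 in the cox4Δ strain. Of 8 translation factors 2 were called lower in each, MEF1 and MEF2, which are elongation factor G homologues. Since 29.4% and 26.3% of all genes were called lower in these strains, none of these counts stands clear of the background. From early to late in wild type 0 of the 12 ribosomal proteins and 0 of the 14 synthetases were called, where 18.4% of all genes were called higher and 14.7% lower. Called higher were 9 of 9 nuclear subunits of the bc1 complex, 9 of 10 of cytochrome c oxidase and 15 of 16 of ATP synthase. Mitochondrially encoded mRNAs, the templates of these ribosomes, were called higher for 5 of 6 in late cox4Δ cells against wild type, with a median difference of 1.21, where 2.46% of all genes were. In the nde1Δ nde2Δ ndi1Δ strain 0 of 6 were, where 2.71% of all genes were, but their median difference was 0.70 as well. Between the late mutants 0 of 6 were called, and from early to late 5 of 6 were called higher in the nde1Δ nde2Δ ndi1Δ strain and 6 of 6 in the cox4Δ strain, where 12.2% and 13.7% of all genes were. VAR1, the ribosomal protein encoded in mitochondrial DNA, lay between 0.1 and 1.04 rescaled TPM, at or near the floor of the table, and was not tested.

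PUF3 mRNA itself lay between 2.21 and 10.2 TPM in all 72 libraries. HAP4, the regulated subunit of the activator of respiratory genes, averaged 23.5 TPM early, 105 in the middle window and 213 late in wild type. It averaged 98.4 TPM late in the nde1Δ nde2Δ ndi1Δ strain and 104 late in the cox4Δ strain. In wild type between 14 and 18 h the 64 members with the Puf3-type element had a median log2 change of 0.98. All 833 genes with it, these members included, had 0.09, and the 4871 without it -0.13. Over the mutants' own steps all genes with the element also lay above those without it, at -0.59 against -0.79 in the nde1Δ nde2Δ ndi1Δ strain and at -0.57 against -0.82 in the cox4Δ strain. Late against wild type the medians were -0.66 with and -0.66 without it in the former, and -0.59 and -0.61 in the latter. In wild type genes with it lay lower from early to middle, at -0.12 against -0.05, and higher from middle to late, at 0.19 against 0.06. The part of either regulator in these values was not tested.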

How the data were processed

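The deposited values were TPM per gene, made by the authors from stranded, rRNA-depleted total RNA libraries. Per the submitters' processing notes, bcl2fastq 2.20.0.422, Salmon 0.9.1 and build sacCer3 were used. No source used here states the annotation or strand setting. TPM keep no read numbers, so depth is unknown. In every library a common total was set over 5780 genes, leaving out 19 on mitochondrial DNA and 4 on a plasmid. No filter on gene type was applied. The 5721 genes with a mean of at least 1 were tested on log2(rescaled TPM + 1) with limma 3.58.1 in R 4.3.3 (trended, robust). A fold change on this scale understates that of low genes. Strains were compared with the time point as a block (42 residual degrees of freedom), since the labels match times across strains, and windows from group means (63). P-values were adjusted over all tested genes. The script was tested on simulated data. Members and lists were chosen with earlier results of these data known. Members were named for the highest and lowest differences (5 each in late strain and late against early comparisons, 2 each elsewhere), levels and correlations; any others were chosen after their values were seen. Sequences came from RefSeq's R64 genome.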

Additional observations from a re-analysis of the deposited data

Results flagged for a closer look

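Late minus early differences were set against those of wild type by an interaction term in limma, adjusted over all genes. In the nde1Δ nde2Δ ndi1Δ strain 19 of 66 members changed more downward than in wild type, led by RSM22 with a log2 difference of -1.89 and MRPL11 with -1.69. In the cox4Δ strain 18 did so, led by RSM22 with -1.86 and MRPL27 with -1.74. These counts lie at or near the background, since 33.5% and 26.1% of all genes were called lower in the same tests, and with the median of ratios 1 and 3 members were called lower. Both sets of values share the wild-type libraries, and the median gene differed as well, by -0.72 and -0.56.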

How the results depend on the processing

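Time points of single cultures stood in for replicates, depth is unknown, and the letters of the column names cannot be told apart from strain. TPM as deposited, no filter, standard moderation and no replicate block moved no count of called members by over 1.5 times; without the replicate block 16 and 14 members were called lower in the late nde1Δ nde2Δ ndi1Δ and cox4Δ strains against wild type. The cause of the changes below was not tested.

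Pairs are members higher and lower, with the nde1Δ nde2Δ ndi1Δ strain before the cox4Δ strain. With the median of ratios, the middle window against wild type gave 2 higher in the former, and the late window 1 and 1 in each. Late minus early gave 10 and 1, then 6 and 2, and its difference from wild type 3 and 1, then 2 and 3. Middle minus early gave 3 and 0 in the former and 0 lower in the latter, late minus middle 2 higher in the cox4Δ strain, and in wild type 2 higher.

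By the adjusted p alone (limma), against wild type the middle window gave 10 and 4, then 8 and 3, and the late window 1 and 51 in each, with 3 lower in cox4Δ than in nde1Δ nde2Δ ndi1Δ cells. In wild type middle minus early gave 5 and 28, late minus early 27 higher and late minus middle 51 higher. In the mutants middle minus early gave 5 and 31, then 4 and 29, late minus early 10 and 37, then 6 and 39, late minus middle 1 and 15, then 5 and 20, and the differences from wild type 1 and 47, then 1 and 46.

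With a pseudocount of 5, late cox4Δ against wild type gave 7 lower, wild-type late minus middle 2 higher, middle minus early 0 lower in each mutant, and late minus early 5, then 9 lower. With 0.1, cox4Δ middle minus early gave 2 lower. Without MRP8 and RSM22, an alternative chosen after seeing the data, middle minus early gave 0 higher in every strain, and late minus early 1, then 0 higher. The HXT3 step, with neighbouring times also chosen after seeing the data, gave 8 (from 15 h) and 6 (to 16 h) higher in wild type. In the nde1Δ nde2Δ ndi1Δ strain it gave 3 (10 to 15 h), 1 (12 to 15 h, with 8 lower), 11 (to 14 h) and 12 (to 16 h), and in the cox4Δ strain 4 (from 13 h). By sums in place of medians, the log2 ratio of large to small subunit was 0.23, 0.13 and 0.28 in wild type, 0.20, -0.012 and -0.18 in the nde1Δ nde2Δ ndi1Δ strain, and 0.30, 0.12 and 0.021 in the cox4Δ strain. These sums weigh members by level and were not recomputed without MRPS12, the member with the highest mean.

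Leaving out 1 time point gave 0 to 2 higher and 0 to 1 lower for wild-type middle minus early, 3 to 5 higher for late minus early and 2 to 8 for late minus middle. In the mutants middle minus early gave 1 to 3, then 1 to 2 lower, late minus early 11 to 12, then 12 to 16 lower, with 1 to 2 higher in the cox4Δ strain. Against wild type the late window gave 13 to 20, then 10 to 16 lower, and the differences in change 17 to 25, then 17 to 20.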
